A study of Rattus norvegicus with 64 samples.

Results

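Whole blood of amphetamine (AMPH) rats that became hyperthermic was compared with that of AMPH rats kept normothermic by a cool room. The rats chosen were all those with AMPH whose libraries came from 1 of the 5 sequencing projects that held both kinds of rat, which gave 10 hyperthermic and 10 normothermic rats, 20 of the 64 rats in the series. All 20 were male Sprague-Dawley rats, 85 to 90 days old, injected with AMPH 4 times at intervals of 2 h, and cardiac blood was drawn 3 h after the last injection. The hyperthermic rats stood in a 22.5 °C environment and the normothermic rats in a 16 °C environment. Each library was from 1 rat. Body temperatures are not in the files used here, so the groups stand for the room and its label, not for a measured temperature. The study's methods had AMPH rats that overheated cooled on ice, and the sources used here do not give the AMPH dose of the rats in the cool room. Both groups had AMPH, and a difference in dose between them cannot be told apart from the difference in room.

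The 5 projects are called A to E below. Project A held 2 hyperthermic and 4 normothermic rats, B held 1 of each, C held 4 and 2, D held 2 of each and E held 1 of each. Rat IDs began with JB or ML in projects A and B and with FG in project C. In projects D and E the hyperthermic rats had IDs of the first kind and the normothermic rats had FG IDs, so in these projects the ID series and the group cannot be told apart. The labels do not say what the ID series stand for. A fit with the ID series as a further covariate is therefore given beside the results that depend on it.

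Cells that are heated unfold part of their protein, which frees heat shock factor 1 to switch on genes for chaperones, the proteins that hold and refold other proteins. The main families are the Hsp70, Hsp110, Hsp90 and small heat shock proteins with their co-chaperones. Cooling has an opposite class of gene, the RNA-binding proteins Cirbp and Rbm3, whose transcripts are raised by mild cold and lowered by warmth. Blood carries leukocytes, platelets and reticulocytes, and each of these keeps RNA of its own.

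Heat shock factor binds DNA at inverted repeats of the letters GAA. The 250 bases before the transcription start were searched on both strands for 3 such units in a row, GAANNTTCNNGAA or its complement TTCNNGAANNTTC, in the RefSeq promoters of the rat build GRCr8. Of 33469 promoters, 222 (0.663%) held it. Among 15 chaperone genes of the list used below that passed the test and had a promoter there, 4 held it. Their sequences are shown because these genes are among those that rose. Capitals mark the matching letters, each sequence is 5′ to 3′ along the gene, and Hspd1 and Hspe1 are divergent neighbours that share 1 stretch.

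Hsph1, chr12:10427255-10427354, plus strand: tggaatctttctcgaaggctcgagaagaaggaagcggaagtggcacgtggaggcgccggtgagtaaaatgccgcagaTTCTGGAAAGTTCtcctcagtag
Hspd1, chr9:64084188-64084287, minus strand: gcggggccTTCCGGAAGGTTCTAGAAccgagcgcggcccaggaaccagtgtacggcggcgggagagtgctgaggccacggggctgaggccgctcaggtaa
Hspe1, chr9:64084190-64084289, plus strand: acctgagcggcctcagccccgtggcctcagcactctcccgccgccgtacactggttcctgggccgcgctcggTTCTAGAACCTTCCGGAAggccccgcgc
Hspa8, chr8:50080382-50080481, plus strand: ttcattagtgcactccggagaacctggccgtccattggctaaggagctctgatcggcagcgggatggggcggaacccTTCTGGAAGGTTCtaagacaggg

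Hspa8 holds a second run outside the stretch shown. A match is a run of letters and no evidence of binding. The other 11 chaperone promoters hold no run of this exact form in that window.

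For the files used here, total counts ran from 24631777 to 31299665 in the hyperthermic rats (median 27758968) and from 22619785 to 36838622 in the normothermic rats (median 27867466). Levels below are counts normalized by DESeq2's size factors, given as the lowest, median and highest of the 10 rats of a group. Differences are log2 fold changes of hyperthermic over normothermic rats from edgeR's quasi-likelihood test with project as a covariate. The SE given with them was derived, as the absolute log2 fold change over the square root of the test's F statistic. Adjusted p-values are Benjamini-Hochberg values over all genes tested. Neutrophil, monocyte, T-cell, B-cell, platelet and reticulocyte markers were all present, as the label whole blood requires. Normothermic rat 2, of project A, stood apart. It had 19852 counts of Mb, the heart and muscle myoglobin, where the next highest of the 20 rats had 977, and 31.2% of its counts came from hemoglobin genes. The study took control rats with very high Mb out of its analysis as possibly holding heart muscle. Here normothermic rat 2 was kept in the main fit. Where a named gene loses its call or a count of calls moves by more than 1.5 times without this rat, the value without it is given.

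Of 11975 genes tested, 1651 (13.8%) passed an adjusted p of 0.05, of which 842 (7.03%) were higher and 809 (6.76%) lower in the hyperthermic rats. Counts of list members below are to be read against these shares, and some lie near them. An absolute log2 fold change over 1 was reached by 449 of them (3.75%), 276 higher and 173 lower. Of the 1651 genes, 1396 had the same sign of difference in all 5 projects. The genes were called from these same rats, so this agreement is in part built in and is no replication. In projects D and E the sign cannot be told apart from that of the ID series. The groups did not overlap for 61 genes with every hyperthermic rat above (0.509%) and for 62 genes with every hyperthermic rat below (0.518%). The ID series as a further covariate left 5.95% of the genes past the threshold, and 678 of them were among the 1651.

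Chaperones of the cytosol held the 4 largest differences with no overlap between the groups (2 identifiers of Hspa1b, Hsph1 and Hsp90aa1). Of 25 chaperone identifiers tested, 19 rose and none fell, with a median log2 fold change of 2.24, against 0.00 over all genes tested. The 25 stand for 23 symbols, since Hspa1b and Hspa8 have 2 identifiers each. For 13 of the 25 every hyperthermic rat lay above every normothermic rat. Counts of 19 higher and none lower were also found with the ID series as a covariate and without normothermic rat 2.

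Hspa1b encodes an inducible Hsp70, the chaperone that binds unfolded stretches of protein. Its normalized count was 2249, 13849.6 and 67417 in the hyperthermic rats and 28.0, 79.7 and 503 in the normothermic rats. The lowest hyperthermic rat was thus above the highest normothermic rat. The log2 fold change was 8.08 ± 0.72 (adjusted p = 1.85e-06). The files list 2 identifiers with this symbol, ENSRNOG00000050647 and ENSRNOG00000045654, with identical counts in every rat, so reads of near-identical copies may have been shared between them. Within single projects the log2 difference ran from 6.75 (project E) to 9.39 (project D).

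Hsph1 (ENSRNOG00000000902), an Hsp110 that recharges Hsp70 with nucleotide, had 11127, 35798 and 103994 normalized counts in the hyperthermic rats and 249, 469 and 1182 in the normothermic rats. The groups were again fully apart, and the log2 fold change was 6.43 ± 0.44 (adjusted p = 1.88e-07). Hsp90aa1 (ENSRNOG00000007219), the inducible Hsp90, had 33358, 67533 and 197452 against 2262, 3613 and 7291. It also showed no overlap, with a log2 fold change of 4.52 ± 0.37 (adjusted p = 9.58e-07). Stip1, which hands client proteins from Hsp70 to Hsp90, rose by 3.08 ± 0.25 on the log2 scale (adjusted p = 9.58e-07). Its normalized counts were 1783, 3057 and 7398 against 314, 402 and 815. Cacybp, a protein bound by the ubiquitin ligase partner Siah1 and by S100 proteins, had 1350.1, 2782 and 5237 against 298, 566 and 851. For both genes every hyperthermic rat was above every normothermic rat, and the log2 fold change of Cacybp was 2.49 ± 0.20 (adjusted p = 9.58e-07).

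Other members of the list rose by smaller amounts. Hspa8 (ENSRNOG00000009920), the constitutive Hsp70, was high in both groups, with means of 48789 and 12994.5 normalized counts (log2 fold change 1.96 ± 0.20, adjusted p = 5.83e-06), and the groups did not overlap. A second identifier of Hspa8, ENSRNOG00000032585, rose by 1.53 (adjusted p = 0.000116), and there the groups overlapped. Hspd1 and Hspe1, which form the Hsp60 and Hsp10 chaperonin of mitochondria, rose by 3.12 and 2.69 on the log2 scale. Bag3, a co-chaperone of Hsp70 that directs proteins to autophagy, rose by 3.26. Hsf1, which encodes the heat shock factor itself, did not pass (log2 fold change 0.41, adjusted p = 0.094), nor did Hsf2 (-0.04).

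**Figure D1:**
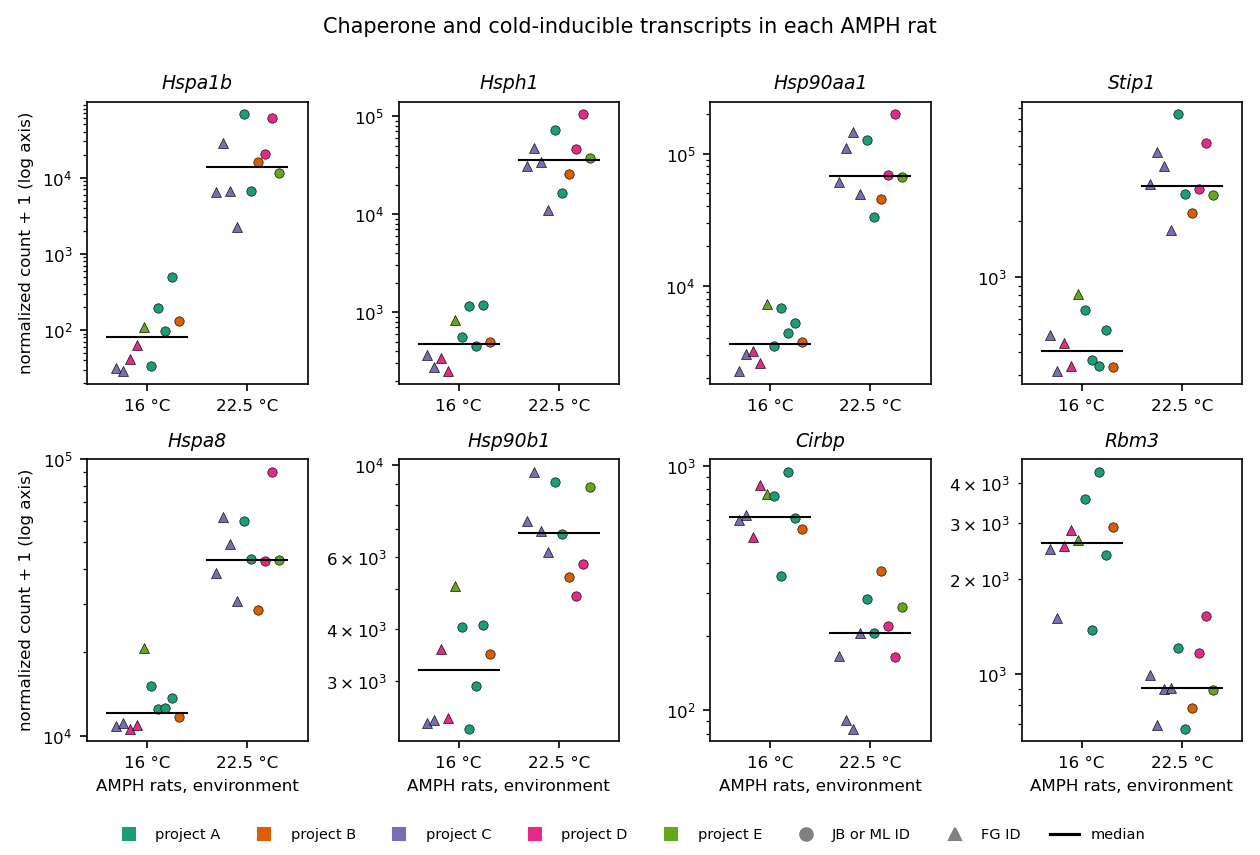
Normalized counts plus 1 (log axis) of 8 transcripts in each of the 10 normothermic (16 °C) and 10 hyperthermic (22.5 °C) AMPH rats; color marks the sequencing project, the marker shape the ID series and the line the group median. For Hspa1b, Hsph1, Hsp90aa1, Stip1 and Hspa8 (ENSRNOG00000009920) all 10 hyperthermic rats lie above all normothermic rats, while for Cirbp and Rbm3 9 of 10 lie below.

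Chaperones and disulfide isomerases of the endoplasmic reticulum, the compartment in which secreted proteins fold, rose less. Of 17 list members tested, 9 rose and none fell (median log2 fold change 0.56). The same counts were found with the ID series as a covariate and without normothermic rat 2. Pdia4, a disulfide isomerase, had 1174, 1549 and 2205 normalized counts against 359, 549 and 1294. Of the 10 hyperthermic rats 7 were above all normothermic rats, and the log2 fold change was 1.52 ± 0.19 (adjusted p = 5.93e-05). Creld2, a secreted product of stressed endoplasmic reticulum, rose by 1.44 ± 0.20, Hsp90b1, the Hsp90 of that compartment, by 1.15 ± 0.17, and Sdf2l1, a partner of its Hsp70, by 1.02 ± 0.14 on the log2 scale. Hspa5, the Hsp70 of the endoplasmic reticulum, rose by 0.75 ± 0.14 (adjusted p = 0.00196). The transcription factors of this response did not pass: Xbp1 had a log2 fold change of 0.60 (adjusted p = 0.0621), Atf4 of -0.10 and DDIT3 of 0.13.

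Both cold-inducible RNA-binding proteins fell. Cirbp (ENSRNOG00000015999) had 83.0, 205 and 370.2 normalized counts in the hyperthermic rats and 353, 618 and 943 in the normothermic rats. In 9 of 10 hyperthermic rats the level was below that of every normothermic rat, and the lowest normothermic rat was rat 2. Cirbp fell by 1.64 on the log2 scale (SE 0.22, adjusted p = 0.000129). Rbm3 (ENSRNOG00000005387) had 675, 904 and 1528 against 1379, 2590.2 and 4338. It too was lower in 9 of 10 hyperthermic rats than in all normothermic rats, and it fell by 1.38 (SE 0.20, adjusted p = 0.000186). Both stayed past the threshold with the ID series as a covariate and without normothermic rat 2.

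**Figure D2:**
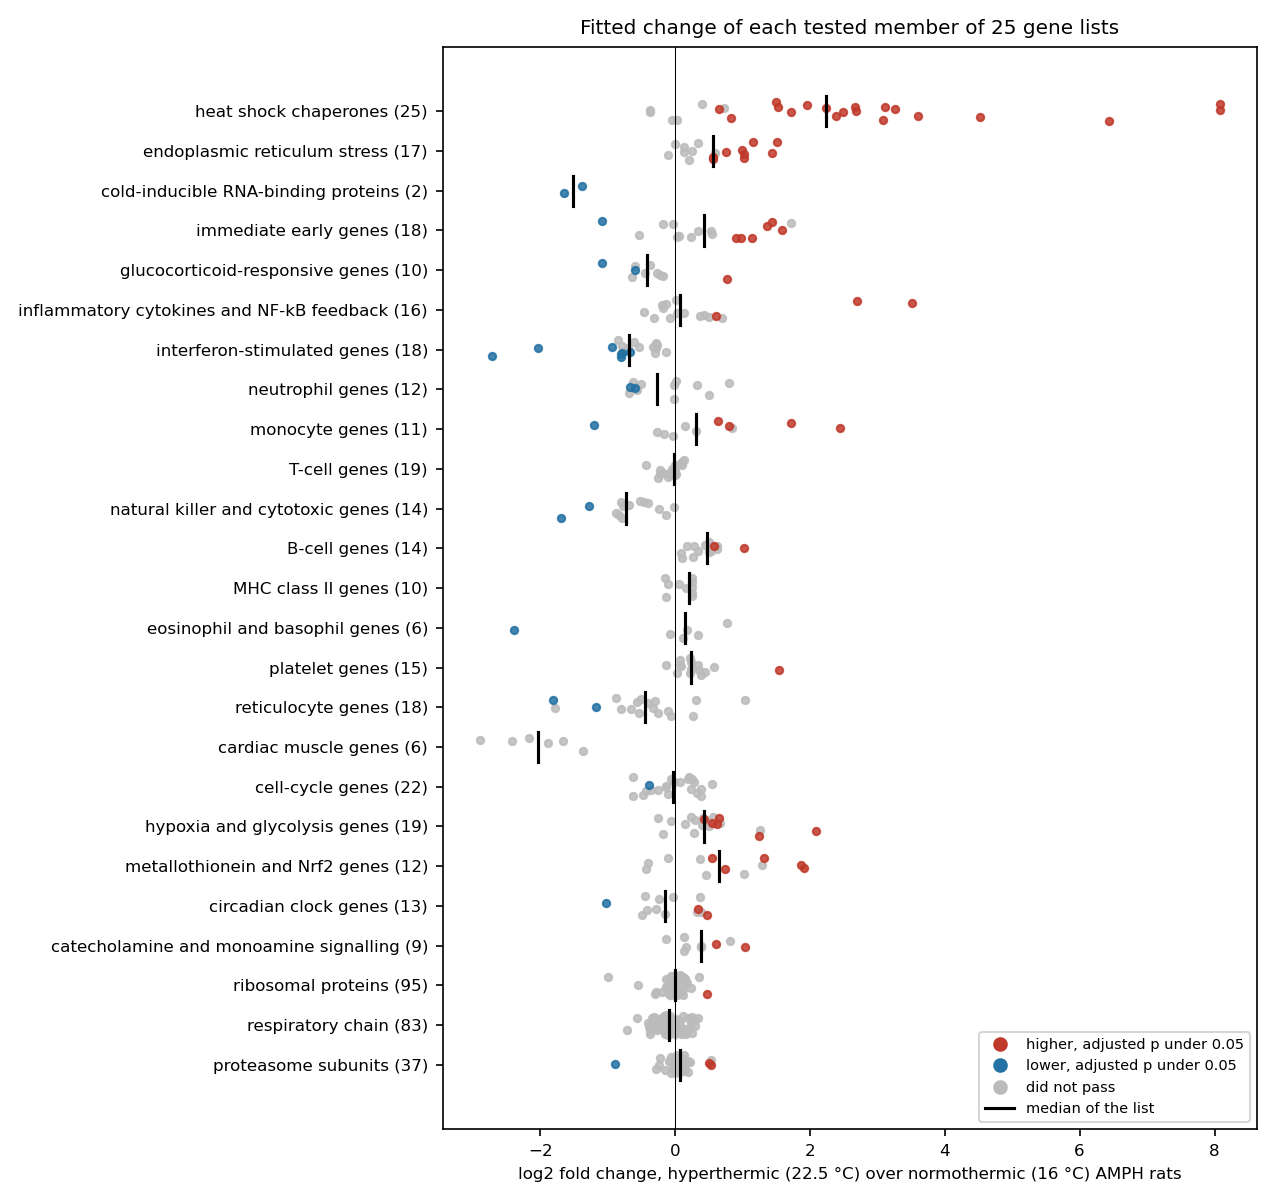
Log2 fold change (hyperthermic over normothermic AMPH rats, edgeR with project as covariate) of every tested member of 25 gene lists, with the number tested in brackets, colored by whether the adjusted p was under 0.05, and with the list median as a black line. Heat shock chaperones reach 8.08 with 19 of 25 higher, all 18 interferon-stimulated genes lie below 0 with 7 called lower, and the 95 ribosomal protein identifiers center at -0.01.

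The largest rises after Hspa1b and Hsph1 were of transcripts made in the liver. By the rule for named genes, which takes the 10 largest rises, 7 of the 10 were plasma proteins or carriers of the hepatocyte. These were Mup5 (a major urinary protein), Pzp and Serpina3k (protease inhibitors), Alb (albumin), Ahsg (fetuin A), Gc (the vitamin D carrier) and Hpx (the heme carrier hemopexin). The log2 fold change was 5.79 ± 1.63 for Mup5 and 4.97 ± 0.84 for Hpx, with the other 5 in between.

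Alb (ENSRNOG00000002911) had 12.5, 1386 and 52286 normalized counts in the hyperthermic rats and 3.23, 104 and 1362 in the normothermic rats. The groups overlapped widely, and 5 of 10 hyperthermic rats were above all normothermic rats. The log2 fold change was 5.21 ± 1.16 (adjusted p = 0.0062). Its level followed the ID series as well as the group. Among rats with JB or ML IDs the range was 715 to 52286 in the 6 hyperthermic rats and 101 to 1362 in the 5 normothermic rats. Among rats with FG IDs it was 12.5 to 592 in 4 hyperthermic rats and 3.23 to 108 in 5 normothermic rats. Within projects the log2 difference was 3.11 in A, 3.68 in B and 2.66 in C, where both groups had the same kind of ID, and 7.83 in D and 8.94 in E, where they had not. Once the ID series was a covariate, the log2 fold change was 3.44 (adjusted p = 0.0334).

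For the other 6, too, the within-project difference was largest in E and second largest in D. In the fit with the ID series, Pzp had a log2 fold change of 4.00 (adjusted p = 0.00703), Serpina3k of 3.66 (adjusted p = 0.0133), Hpx of 3.46 (adjusted p = 0.0117), Ahsg of 3.46 (adjusted p = 0.0289) and Gc of 3.21 (adjusted p = 0.0344). Mup5 no longer passed (3.40, adjusted p = 0.183). It had no count in 6 normothermic and 3 hyperthermic rats. A wider list of 42 hepatocyte genes was drawn up after these values had been seen and is a description only. The files held 40 of the symbols, 31 identifiers were tested, and all 31 had a positive log2 fold change (median 3.86, range 0.16 to 5.79). Of these 28 passed. In the fit with the ID series 30 of 31 were positive (median 2.59), but only 13 passed.

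**Figure D3:**
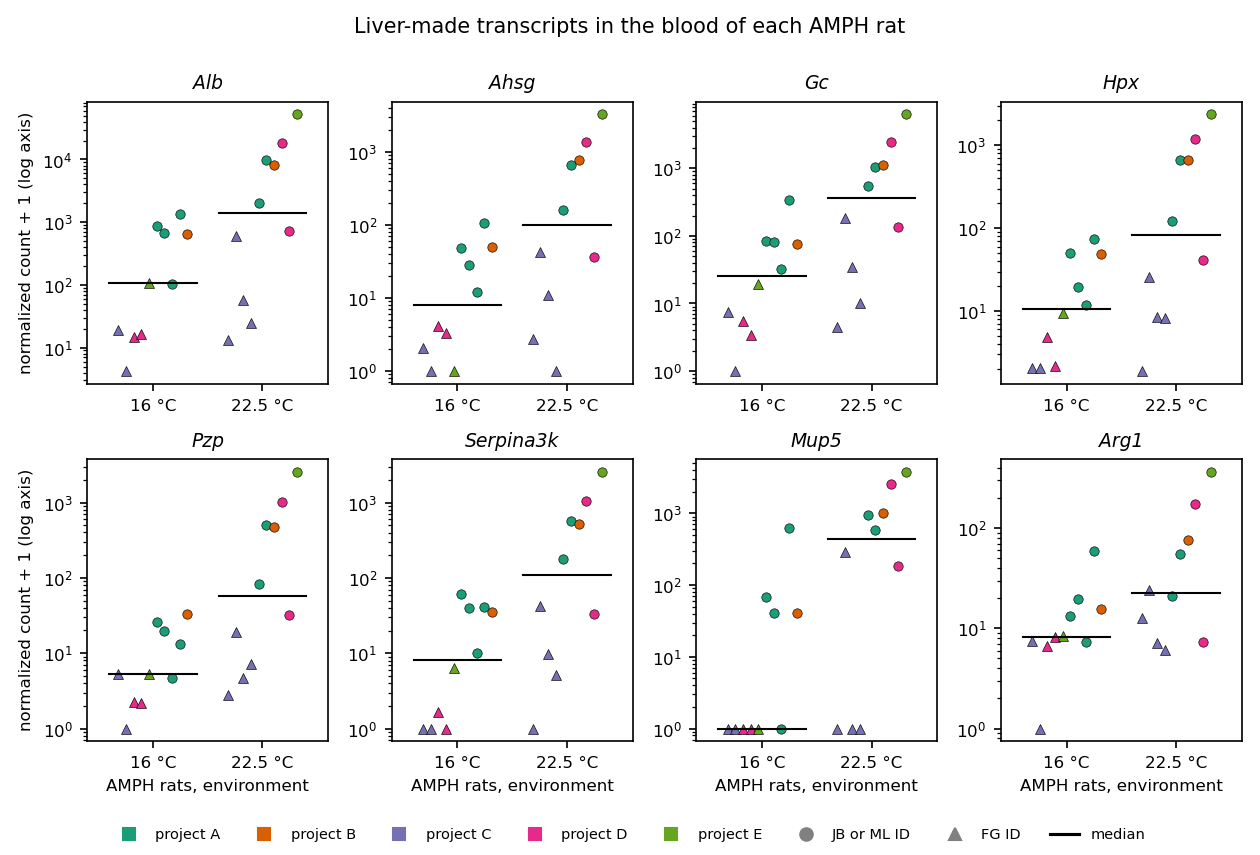
Normalized counts plus 1 (log axis) of 7 liver-made transcripts and Arg1 in each AMPH rat, with color for the project, marker shape for the ID series and a line for the group median. Rats with JB or ML IDs lie above rats with FG IDs in both groups for Alb medians (8963 against 39.7 in hyperthermic and 661 against 15.4 in normothermic rats), and the highest rat is the hyperthermic rat of project E.

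Interferon-stimulated genes encode antiviral effectors. Of 18 tested, 7 fell and none rose, and all 18 had a negative log2 fold change (median -0.69). In bulk blood, fewer cells of a type and less RNA per cell cannot be told apart, here and for the cell markers below. Rsad2 (ENSRNOG00000007539), viperin, had 2087, 4937 and 9922 normalized counts in the hyperthermic rats and 19573, 32309 and 50590.4 in the normothermic rats. There was no overlap, and Rsad2 fell by 2.71 on the log2 scale (SE 0.26, adjusted p = 3.17e-06). Ifit1 had 341, 2845 and 6827 against 4718, 9913 and 27822, with 9 of 10 hyperthermic rats below all normothermic rats, and fell by 2.03 (SE 0.44, adjusted p = 0.0053). Gbp2, a guanylate-binding protein, fell by 0.80 and Ifih1, the RNA sensor Mda5, by 0.79. The list was not uniform, since Irf7 (-0.28, adjusted p = 0.588) and Mx1 (-0.26, adjusted p = 0.516) did not pass. With the ID series as a covariate 3 of 18 passed, which did not include Ifih1 (adjusted p = 0.0519). Without normothermic rat 2, 8 of 18 passed.

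Promoters of interferon-stimulated genes can carry the response element TTTCNNTTTC (or GAAANNGAAA on the other strand), which 1140 of the 33469 promoters (3.41%) held in the same window. It was held by 4 of 5 genes of the list that passed and had a promoter there, and by 3 of 6 that did not pass. The gene with the largest fall is shown, with the element in capitals, from chr6:48788248-48788347 of GRCr8, minus strand.

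Rsad2: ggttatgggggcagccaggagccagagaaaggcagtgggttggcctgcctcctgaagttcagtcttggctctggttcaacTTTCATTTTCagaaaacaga

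Markers of natural killer (NK) cells, which kill infected cells, lay on the negative side. All 14 identifiers tested had a negative log2 fold change (median -0.72). The 2 that passed are 14.3%, where 13.8% of all genes passed and 6.76% were lower. With the ID series as a covariate 1 passed. Ncr1 (ENSRNOG00000018458), the activating receptor NKp46, had 71.2, 165 and 305 normalized counts against 325, 559 and 679. The groups did not overlap, and it fell by 1.69 (SE 0.27, adjusted p = 0.000525). Klrb1a, a lectin-like receptor, fell by 1.28 (adjusted p = 0.0253), but not with the ID series as a covariate (adjusted p = 0.137). Gzmk, a granzyme of T and NK cells, had 117, 186 and 1187 against 786, 1405 and 2291. It fell by 1.86 (SE 0.47, adjusted p = 0.0138), and with the ID series as a covariate its adjusted p was 0.0865. None of 19 T-cell genes passed (range -0.44 to 0.13).

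Other leukocyte markers moved in small numbers of genes. Ccr3, the eotaxin receptor of eosinophils, had 2.35, 17.9 and 49.6 normalized counts against 45.5, 99.1 and 212 and was below all normothermic rats in 9 of 10 hyperthermic rats. It fell by 2.39 (SE 0.45, adjusted p = 0.00205) and was the 1 member of 6 eosinophil and basophil genes to pass. Of these 6 genes 4 had a positive log2 fold change (median 0.14), among them Gata2, a transcription factor of basophils and mast cells (0.77, adjusted p = 0.205), and the median was -0.02 over 7 genes without normothermic rat 2. Of 12 neutrophil genes 2 fell, the chemokine receptor Cxcr2 by 0.66 and the collagenase Mmp8 by 0.60 on the log2 scale. Neither neutrophil gene passed with the ID series as a covariate, and Mmp8 did not pass without normothermic rat 2 (adjusted p = 0.0551). S100a8 and S100a9, the most abundant neutrophil transcripts of the list, had log2 fold changes of -0.68 (adjusted p = 0.0584) and -0.63 (adjusted p = 0.0751).

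Of 11 monocyte genes 4 rose and 1 fell. Only 3 rose with the ID series as a covariate. Among those that rose were Csf1r, the receptor of the monocyte growth factor (0.64 ± 0.16), the lysosomal protein Cd68 (0.80 ± 0.19) and Arg1 (2.44 ± 0.73). Cd36, a scavenger receptor, was 2.30-fold lower (adjusted p = 0.00552). Arg1 did not pass with the ID series as a covariate (1.34, adjusted p = 0.294). Arg1, arginase, is also made by hepatocytes, and its highest levels were in the rats with the most Alb. It had 364 normalized counts in the hyperthermic rat of project E, which had the most Alb, and 175 in a hyperthermic rat of project D, which was second for both. The part of liver RNA in the Arg1 result was not tested.

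B-cell markers were all on the positive side. Of 14 tested 2 rose (14.3%), where 13.8% of all genes passed and 7.03% were higher. All 14 had a positive log2 fold change (median 0.47). Pou2af1 (ENSRNOG00000011500), a coactivator of immunoglobulin transcription, had 966, 1224 and 2352 normalized counts against 372, 583 and 965. The lowest hyperthermic rat was just above the highest normothermic rat, and the log2 fold change was 1.02 ± 0.19 (adjusted p = 0.00195). Blk, a kinase of the B-cell receptor, rose by 0.58 (adjusted p = 0.0453), but neither without normothermic rat 2 (adjusted p = 0.059) nor with the ID series as a covariate (adjusted p = 0.0658). None of 10 class II MHC identifiers passed.

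Of 15 platelet genes 1 rose (6.67%), where 7.03% of all genes were higher. Ppbp (ENSRNOG00000002829), the chemokine of platelet granules, had 631, 1040.2 and 1718 normalized counts in the hyperthermic rats and 201, 361 and 609.7 in the normothermic rats. There was no overlap, with a log2 fold change of 1.53 ± 0.24 (adjusted p = 0.00043). The other 14 platelet genes had log2 fold changes between -0.13 and 0.58. The median of the 15 was 0.23, but -0.19 (range -0.52 to 1.23) with the ID series as a covariate. Ppbp passed in that fit too (1.23, adjusted p = 0.013).

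**Figure D4:**
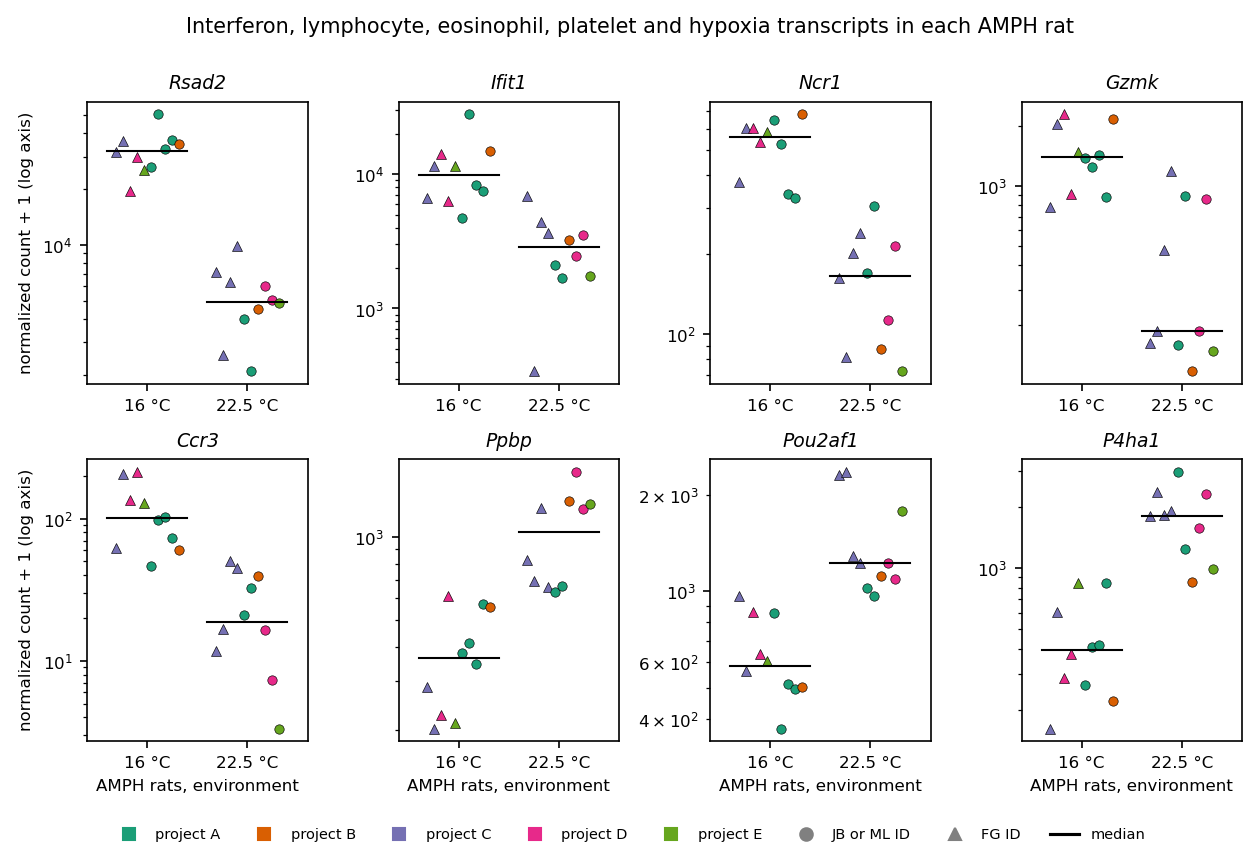
Normalized counts plus 1 (log axis) of 8 transcripts of interferon response, lymphocytes, eosinophils, platelets and hypoxia in each AMPH rat, drawn as in the plot of chaperones. Rsad2 and Ncr1 are lower, and Ppbp, Pou2af1 and P4ha1 higher, in all 10 hyperthermic rats than in any normothermic rat, while Ifit1, Gzmk and Ccr3 overlap.

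Hemoglobin genes, whose RNA reticulocytes carry and the kit removes in part, took a smaller share of the counts in the hyperthermic rats. The share was 3.04%, 5.38% and 14.4% (lowest, median and highest) against 9.10%, 10.7% and 31.2%, with means of 6.43% ± 3.57 and 13.0% ± 6.65 (SD, n = 10 in each group). The difference passed an exact two-sided permutation test within projects (p = 0.0141), and again without normothermic rat 2 (p = 0.00722). It was -12.9 percentage points in project A, -11.4 in B, -6.42 in D and -4.07 in E, but 0.45 in C. The share followed the ID series as well. It was 3.04% to 6.34% in the 6 hyperthermic rats with JB or ML IDs and 7.39% to 14.4% in the 4 with FG IDs. Normothermic rats had 10.03% to 31.2% and 9.10% to 12.2% in the same order, so hyperthermic and normothermic rats did not overlap in the first series and overlapped in the second. Leftover after depletion and reticulocyte RNA cannot be told apart. Of 18 reticulocyte identifiers 2 fell, Hba-a2, an alpha globin, by 1.81 (adjusted p = 0.0467) and Fech, the last enzyme of heme synthesis, by 1.17 (adjusted p = 0.013). Hba-a2 did not pass with the ID series as a covariate (adjusted p = 0.132), while Slc4a1, the anion exchanger of red cells, did (-1.22, adjusted p = 0.0201). Without normothermic rat 2, 4 of the 18 fell, which were Fech, Hba-a2, Hba2 and Slc4a1. Removing the hemoglobin genes before normalization left 1653 genes called.

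Oxygen and redox genes rose in part. Of 19 hypoxia and glycolysis genes 6 rose and none fell. P4ha1 (ENSRNOG00000050655), which hydroxylates collagen prolines, had 856, 1815 and 2982 normalized counts against 161, 392 and 847. It showed no overlap and a log2 fold change of 2.09 ± 0.29 (adjusted p = 0.000162). Egln3, the oxygen sensor Phd3, rose by 1.25 ± 0.23, and Aldoa, a glycolytic aldolase, by 0.65 ± 0.18. In the fit with the ID series 2 of the 19 passed, and Aldoa did not (adjusted p = 0.157). Of 12 metallothionein and Nrf2 genes 5 rose. Gclc, the catalytic subunit that starts glutathione synthesis, had 340.2, 528 and 1136 against 169, 221 and 318, with no overlap and a log2 fold change of 1.32 ± 0.16 (adjusted p = 5.49e-05). Hmox1, which breaks down heme, rose by 1.86 ± 0.35 and SRXN1, which repairs peroxiredoxins, by 1.92 ± 0.31. With the ID series 4 of these 12 rose.

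Cytokine genes changed in few members. Of 16 tested, 3 rose and none fell. Il1a had 17.3, 52.8 and 96.7 normalized counts against 0, 3.82 and 19.1, and 9 of 10 hyperthermic rats were above all normothermic rats. Its log2 fold change was 3.51 ± 0.56 (adjusted p = 0.00053), at levels near the lower end of what was tested. Cxcl2, a neutrophil chemokine, rose by 2.70 ± 0.61 and the adhesion molecule Icam1 by 0.61 ± 0.15. Of 18 immediate early genes 6 rose and 1 fell. Egr1 rose by 1.44 ± 0.19 (72.8, 132 and 261 against 35.5, 55.2 and 76.9 normalized counts). Dusp1, a MAP kinase phosphatase that is also induced by glucocorticoids, fell by 1.08 (SE 0.21, adjusted p = 0.00285). In the glucocorticoid list of 10, Tsc22d3 also fell, by 0.60, and the chemokine receptor Cxcr4 rose by 0.78 ± 0.18. In the fit with the ID series 3 immediate early genes rose, and neither Tsc22d3 nor Cxcr4 passed (adjusted p = 0.0911 and 0.0503).

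Of 9 catecholamine and monoamine genes tested 2 rose and none fell, and both that rose also passed with the ID series as a covariate. One was Maob, a mitochondrial monoamine oxidase, which had 93.0 to 217 normalized counts against 34.7 to 133 (log2 fold change 1.04 ± 0.21, adjusted p = 0.0039). The groups overlapped, with 7 hyperthermic rats above all normothermic rats. Among 13 clock genes, Per2 fell by 1.02 (adjusted p = 0.0053), and Nfil3 and Cry1 rose by 0.47 and 0.34. None of these 3 passed with the ID series as a covariate, and without normothermic rat 2 neither Nfil3 (adjusted p = 0.0581) nor Cry1 (adjusted p = 0.0552) passed.

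Housekeeping groups moved little. Among 95 ribosomal protein identifiers 1 rose, Rps27l, a p53 target (0.47 ± 0.12, adjusted p = 0.012), and none of 83 respiratory chain identifiers passed. Without normothermic rat 2, 3 of these 83 rose and 1 fell. Among 37 proteasome subunits, Psmb9, an interferon-induced subunit of the immunoproteasome, fell by 0.89 (SE 0.16, adjusted p = 0.00128), and Psmd14 and Psmd1 of the cap rose by 0.50 and 0.54. Psmd1 did not pass with the ID series as a covariate (adjusted p = 0.103). Of 22 cell-cycle identifiers 1 passed, Pcna, the sliding clamp of DNA replication, which fell by 0.39 (adjusted p = 0.0334), but not with the ID series as a covariate (adjusted p = 0.163).

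Of the 10 largest falls, Rsad2, Ccr3, Ifit1 and Gzmk are given above. Schip1, a schwannomin partner, had 18.6, 42.9 and 68.7 normalized counts against 102, 157 and 349, and Zcchc12, a transcriptional coactivator, 8.93, 19.8 and 42.8 against 61.5, 99.4 and 165. Neither overlapped, and they fell by 2.05 (SE 0.27) and 2.04 (SE 0.27). Cdhr1, a photoreceptor cadherin, fell by 2.02 (adjusted p = 0.007), with overlap, and had an adjusted p of 0.054 with the ID series as a covariate.

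The other 3, Lpl, Ndrg2 and Tmem56, were highest in normothermic rat 2. Lpl, lipoprotein lipase, which heart and fat make in quantity, had 5.17, 11.0 and 97.3 normalized counts against 0, 49.5 and 4928, and the 4928 was that rat. Lpl fell by 4.12 (SE 1.08, adjusted p = 0.0162) and without the rat by 2.70 (adjusted p = 0.0441). Neither Lpl (adjusted p = 0.0592) nor Ndrg2 (adjusted p = 0.056) passed with the ID series as a covariate. Of the cardiac muscle list, 6 genes could be tested and none passed (median -2.03), and the summed level of the list was 146 to 3352 in the hyperthermic and 338 to 154542 in the normothermic rats. Without that rat the median was -0.41 (range -1.04 to 0.12). Tnnc1, a troponin of heart and slow muscle, then passed (-1.02, adjusted p = 0.00424). The part of muscle RNA in these falls was not tested.

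**Figure D5:**
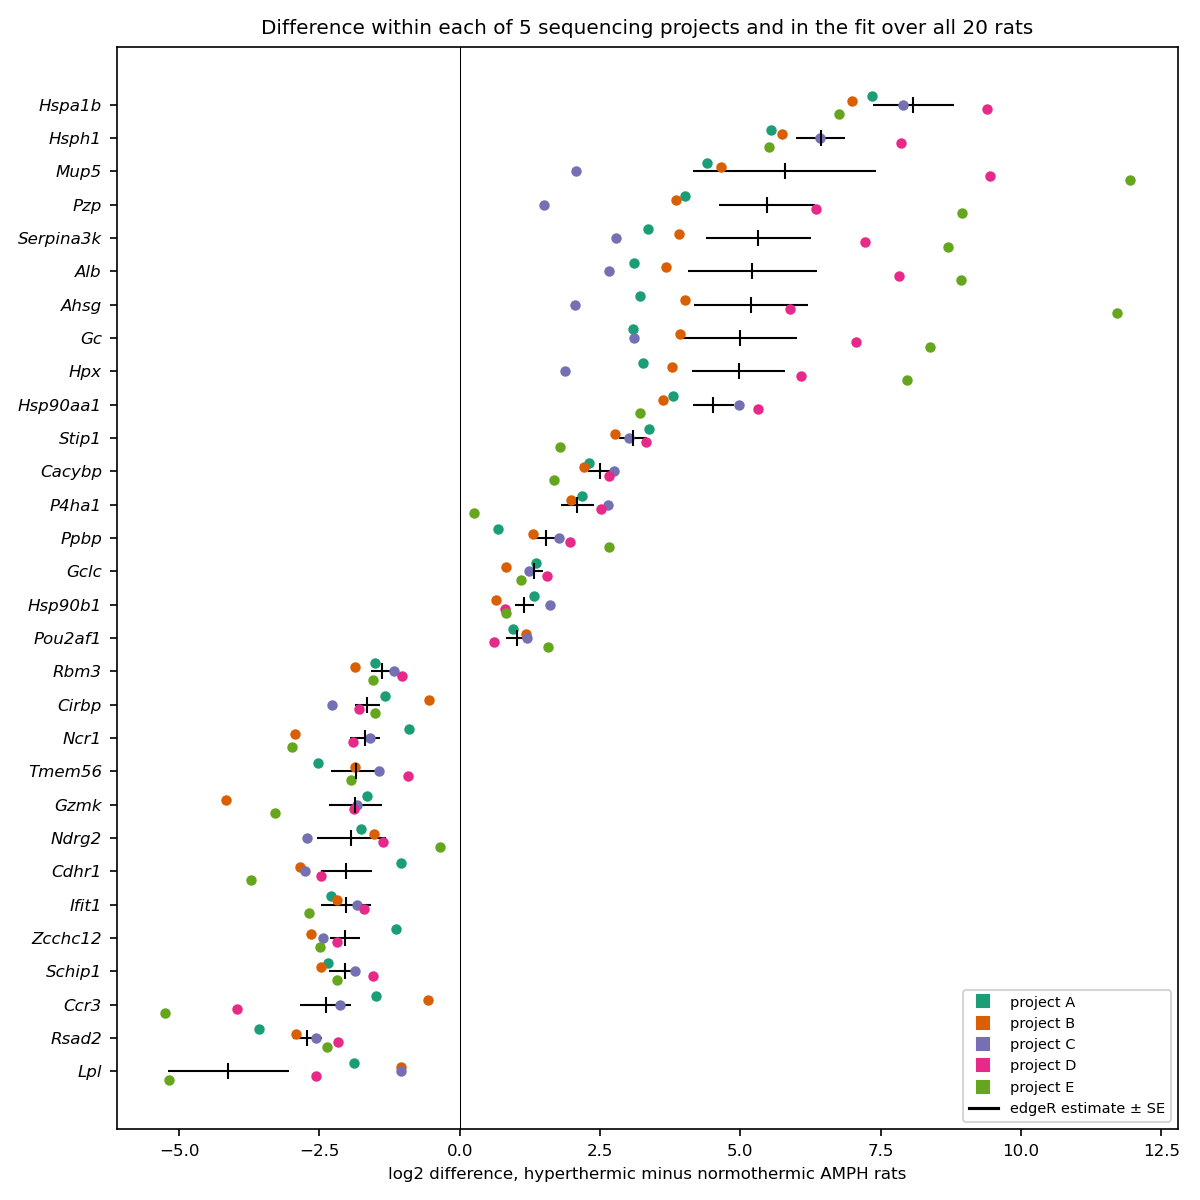
Log2 difference (group means of log2 CPM, hyperthermic minus normothermic) within each of the 5 projects as colored points, and the edgeR estimate over all 20 rats with its SE in black, for the named genes with the largest changes and for 11 further list members (Hsp90aa1, Stip1, Cacybp, Hsp90b1, P4ha1, Ppbp, Pou2af1, Gclc, Cirbp, Rbm3 and Ncr1). For the genes drawn, every point of a gene lies on the same side of 0. For the largest changes the rule that chose them required this, so it is no result for them. Projects B and E hold 1 rat of each group. Ahsg, a liver-made transcript, spreads from 2.06 in project C to 11.7 in project E.

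Whether the difference was unlike in the ID series was asked in the 14 rats of projects A to C. No gene of 11460 passed (0.0% by edgeR's quasi-likelihood test), 1115 had an unadjusted p under 0.05, and DESeq2 called 55. For Hsph1 the interaction was 0.82 on the log2 scale (adjusted p = 0.732), and for Alb 0.78 (adjusted p = 0.905), so no difference between the series was detectable for these genes with these rats.

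Levels in the saline rats, set on 1 normalization over all 64 rats, frame these values, though saline rats came in part from other projects. Hspa1b had medians of 13076.8 in the hyperthermic and 75.6 in the normothermic AMPH rats, 10.6 in 5 saline rats at 16 °C, 12.2 in 6 at 22.5 °C and 41408 in 16 saline rats at 39 °C. Rsad2 had medians of 4678 and 30490.5 in the AMPH groups, and 20944, 27139 and 5883 in these saline groups in the same order. Cirbp had 194 and 588, and 419, 502 and 162. Alb had 1302 and 98.8, and 5.58, 6.55 and 474, with single saline rats at 39 °C up to 119730. All saline rats at 16 °C and at 22.5 °C had FG IDs, and those at 39 °C had either kind. The AMPH medians pool both kinds. With the normalization of the earlier Alb values, medians with FG IDs were 39.7 in hyperthermic and 15.4 in normothermic AMPH rats. With JB or ML IDs they were 8963 and 661. The Alb gap between AMPH and saline rats at 16 °C or 22.5 °C thus mixes in the ID series. The levels of the AMPH and saline groups were not tested against each other here.

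The 12 hyperthermic and 5 normothermic AMPH rats of other projects were not in the fit, and their projects held 1 group only. Their difference had the same sign for 1546 of the 1651 called genes (93.6%), for 439 of the 449 with an absolute log2 fold change over 1 (97.8%) and for 66.4% of the genes not called. Not every one of the 12 was alike: Hspa1b ran from 7.59 to 166599 among them, so that at least 1 rat labelled hyperthermic lay at the level of the saline rats at 16 °C.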

How the data were processed

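Polyadenylated RNA of globin-depleted whole blood was sequenced from single rats. The authors aligned reads with Bowtie 0.12.9 to rat transcripts (build rn5, per the submitters' processing notes) and deposited RSEM 1.2.0 expected counts of each gene, not normalized; here they were rounded to whole numbers. Genes listed in all 20 files (17565 of 26405 in any file) were used, and those with at least 10 counts in at least 10 rats were tested.

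Fits used edgeR 4.0.16 (TMM, quasi-likelihood test, project as covariate, Benjamini-Hochberg adjustment) in R 4.3.3. DESeq2 1.42.0 gave normalized counts and an alternative Wald test. Summaries and exact permutation tests used Python 3.11.15. On simulated counts of this comparison (11881 genes) edgeR recovered 86% of changes of 1 log2 unit and 100% of those of 2, with 1.06% false calls. The changes were planted only in genes above the lowest counts, and each gene's spread followed the trend over genes. No effect of the ID series and no rat like normothermic rat 2 was simulated, so these rates need not hold for the real counts. The biological coefficient of variation, 1 value over all genes, was 0.334. How far depth limited the precision of genes at low counts, such as Il1a, was not tested. The lowest chi-square per gene between rats of a group was 57.2, far above sampling noise.

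Groups came from the sample labels and projects from the codes of the files. Named genes were the 10 largest rises and falls (symbol, adjusted p under 0.05, 100 or more normalized counts on average in either group, same sign in all 5 projects; 2 of the rises are identifiers of Hspa1b) and up to 4 members of each list with the lowest p. Some list members beside them were added after their values were seen, and a few members are not reported here. The rats, lists and rules were chosen with earlier results of these data known. Alternatives covered normalization, test, filter, covariates, rats and projects. Motifs were searched in RefSeq promoters (GRCr8), and no positions are given for genes on rn5.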

Additional observations from a re-analysis of the deposited data

Results flagged for a closer look

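Normothermic rat 2 lay far from the other 9 rats of its group in 12 of the measures examined. It was highest in the hemoglobin share (31.2%), Hba-a2 (12734393 normalized counts), Hba2 (5668424), Mb (40986), Tnni3 (23024), Tnnc1 (10211), Cd36 (29742), Ndrg2 (1377), Tmem56 (507.9) and Hspe1 (948). It was lowest in Cd68 (262) and Csf1r (1076).

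In the hyperthermic group, rat 2 was far above the others in Mb (674 normalized counts), rat 6 far above in Atf4 (9903) and rat 11 far below in Ifit1 (341). In the normothermic group, rat 4 was far below the others in Cdhr1 (29.7), rat 9 in Arg1 (0), and rat 14 was far above in Hspa8 (20809). A gap of this size between the extreme rat and its neighbor was found in 18 of 190 groups of 10 examined on the log2 scale, and chance alone gives about 1 in 20.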

How the results depend on the processing

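Of the genes tested, 13.8% were called. The share was 5.95% with project and ID series as covariates and 7.20% (886 genes) without project C, and leaving out 1 rat gave 9.27% (without hyperthermic rat 1) to 15.9% (without normothermic rat 2). DESeq2 called 2197 genes, which included 1638 of the 1651. For the interaction with the ID series DESeq2 called 55 genes where edgeR called none. The replicate numbers of the labels did not pair the rats: deviations of same-numbered rats correlated from -0.14 to 0.15 over 7 pairs. A replicate block in place of project called 7.91% in these 14 rats, and project without the block 5.79%, a fit chosen after the data were seen. Over 94 identifiers and all alternatives, 2923 values kept their side of the threshold, 282 lost it, 53 gained it and 13 changed sign. Those that changed sign were of 4 genes that had not passed. Atf4 was 0.060 and Hsf2 0.20 without project A, Hsf2 0.032 and DDIT3 -0.025 without project D, DDIT3 -0.059 with the replicate block and -0.11 in the same rats without it, and Irf7 0.14 without the project covariate and 0.011 over all 22 and 15 AMPH rats. Leaving out 1 rat gave -0.13 to 0.075 for Hsf2 and -0.049 to 0.19 for DDIT3. Why calls were lost was not tested. Differences well under 1 log2 unit can be missed at 10 rats a group, but large ones were not always the surest. Mup5 (log2 fold change 5.79) and Arg1 (2.44) did not pass edgeR's test with the ID series (adjusted p = 0.183 and 0.294). Hspa5, with a smaller difference (0.75), did (adjusted p = 0.009).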

Other observations

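Gene families and single genes chosen after their values were seen are described here. All 8 subunits of the cytosolic chaperonin TRiC, which folds actin and tubulin, were higher in the hyperthermic rats by edgeR's adjusted p over all genes, with log2 fold changes from 0.54 (Cct2) to 0.95 (Tcp1), and all 8 passed with the ID series as a covariate. Of 36 J-domain co-chaperones, which deliver proteins to Hsp70, 4 were higher and none lower (median 0.02), and 3 were higher with the ID series as a covariate. The lists of the report already hold 3 of the 4 (Dnaja1, Dnajb1 and Dnajb11), and the other, Dnaja4, did not pass with the ID series. Zfand2a, an arsenite- and heat-inducible partner of the proteasome, had 768, 3715 and 23976 normalized counts (lowest, median and highest) against 239, 407 and 620.4, a log2 fold change of 4.04. Sod1, the cytosolic superoxide dismutase, had 2104, 3026 and 3872 against 781, 1215 and 1399.8 (1.42). Hes1 and Nrarp, both Notch targets, rose by 2.86 and 1.55, and in neither did the groups overlap.

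Among blood cell genes, Bst2, an interferon-inducible tether of viruses, was higher (1261, 2326 and 4949.6 against 215, 321 and 790.2; log2 fold change 2.75, adjusted p = 3.17e-06), opposite in sign to all 18 genes of the interferon list. Igj and Igkc, parts of secreted antibody, rose by 1.37 and 1.17 without overlap, though reads of immunoglobulin genes can be shared between copies. All 15 killer cell lectin-like receptor genes tested had negative log2 fold changes (median -0.91). Of these 4 passed, among them Klrg1 (-1.76, adjusted p = 0.0107), where 6.76% of all genes were lower. Klrb1a, Klrd1 and Klrk1 are also in the NK list above, and Klrb1a is among the 4. With the ID series as a covariate 1 of the 15 passed, and Klrg1 did not (adjusted p = 0.0552). Hcst, the adaptor Dap10 of NK cells, fell by 1.24, and Ifngr1, an interferon gamma receptor chain, by 1.00. In both, every hyperthermic rat was below every normothermic rat.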
